A study of Saccharomyces cerevisiae with 12 samples.

Results

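Genes of phospholipid and inositol synthesis were followed across 12 chemostat cultures of baker's yeast. The 10 genes were chosen by name from the pathway: INO1, ITR1, CHO1, PSD1, CHO2, OPI3, CKI1, INO2, INO4 and OPI1. All 10 were found, each with 1 probe set, among 5656 genes with a probe set of their own and 9275 yeast probe sets in all. A probe set is a group of short oligonucleotides on the array that are read together, in most cases for 1 gene.

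The study asked what happens to expression when the native cytosolic route to acetyl-CoA, the building block of fatty acids and sterols, is replaced. There were 4 groups of 3 cultures, all fed glucose-limited medium at pH 5.0 and 30 °C and diluted by 0.1 per h. The reference CEN.PK113-7D was cultured in both gas phases, aerobic and anaerobic. IMZ305 was cultured with air only. It lacked ALD2, ALD3, ALD4, ALD5 and ALD6 (acetaldehyde dehydrogenases) and ACS1 and ACS2 (acetyl-CoA synthetases), and carried eutE of Escherichia coli with URA3 on plasmid pUDE151. IMZ383 was cultured without oxygen only. In it both ACS genes were deleted, and plasmid pUDE204 supplied URA3 and the E. coli genes pflB and pflA. All strains were MATa with the MAL2-8C and SUC2 alleles. Both engineered strains came from CEN.PK102-12A, which carries mutant alleles of URA3, LEU2 and HIS3, and the deletions were marked with LEU2, HIS3 and, in IMZ305, KanMX4, hphNT1, natNT2 and AmdS. Strain background, markers and plasmid therefore differed from the reference together with the acetyl-CoA route, and their parts cannot be told apart. The medium held 7.5 g/L glucose, and an antifoam, with air. Without oxygen it held 20 g/L glucose, 10 mg/L ergosterol and 420 mg/L Tween 80, so that oxygen and medium cannot be told apart either. Each engineered strain is a single genotype, and the p-values measure the spread between the numbered cultures.

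Yeast makes inositol from glucose 6-phosphate through the product of INO1 or takes it up through Itr1. CDP-diacylglycerol is turned into phosphatidylinositol or, by Cho1, into phosphatidylserine, which is decarboxylated to phosphatidylethanolamine and methylated to phosphatidylcholine. Free choline enters the same product through choline kinase and the CDP-choline branch. Many of these genes share a promoter element that is bound by Ino2 and Ino4, a pair of basic helix-loop-helix activators that act as a dimer, and is silenced through the repressor Opi1. Opi1 is held outside the nucleus by phosphatidic acid and is released when inositol is present and phosphatidic acid is consumed, which makes INO1 the textbook reporter of this circuit. The synthetic medium cited in the labels is known for a vitamin mix that contains inositol; the labels do not list its vitamins.

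The values are signals per probe set on a linear scale, scaled by the authors. The mean without the lowest and highest 2% was 150.1 to 150.2 on every array. Between 74.1% and 84.9% of the yeast probe sets lay above the highest of 19 non-target controls of the same array (2.6 to 7.5 signal units), and all 10 genes lay above it on all 12 arrays. The strains and gas phases read as labelled. The highest signals of ACS1 and ACS2 were 0.5 and 2.1 in IMZ305 and 0.5 and 6.1 in IMZ383, against lowest signals of 952 and 647.9 in the aerobic and 94.3 and 558.5 in the anaerobic reference. DAN1, a gene expressed without oxygen, read 2 to 32.7 with air and 1176 to 3692 without. The mean of 3 BioB hybridization controls was 7.9 to 12.0 on 5 of the 6 aerobic arrays and 42.9 to 86.2 on aerobic reference 3 and the 6 anaerobic arrays. Except on aerobic reference 3 it followed the gas phase, and its part in the oxygen comparison was not tested. For ACT1, the 3′ over 5′ signal ratio (higher where RNA is more degraded) spanned 1.37 to 1.47 in IMZ383 and 1.67 to 1.90 in its reference. These ranges did not overlap, and the part of this ratio in the anaerobic strain comparison was not tested. With air the ratio was 1.24 to 1.96 in the reference and 1.61 to 1.65 in IMZ305.

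INO1 (YJL153C) encodes inositol-3-phosphate synthase, the first and committed enzyme of inositol synthesis. Its signal was 826.8, 553.3 and 771.8 in the aerobic reference (717 ± 145, mean ± SD, n = 3 here and below). It was 317.5, 348.5 and 293.8 in IMZ305 (320 ± 27.4). It was 164, 287.5 and 286.4 in the anaerobic reference (246 ± 71.0) and 64.1, 39.4 and 67.3 in IMZ383 (56.9 ± 15.3). The groups did not overlap at any step of this order, though the lowest IMZ305 culture stood only just above the highest anaerobic reference culture. INO1 had the widest range of the 10 genes, with group means spanning 3.67 on the log2 scale. In bulk RNA, fewer expressing cells and less RNA per cell cannot be told apart.

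ITR1 (YDR497C) encodes the major inositol transporter of the plasma membrane. It read 1768, 755.4 and 1619 in the aerobic reference (1381 ± 547) and 1251, 1203 and 1221 in IMZ305 (1225 ± 24.5). Aerobic reference 2 lay below the other 8 arrays outside IMZ383. Without oxygen it read 1308, 1650 and 1444 in the reference (1467 ± 172) and 685, 712.8 and 768.3 in IMZ383 (722 ± 42.4). The anaerobic groups did not overlap, whereas the aerobic reference spanned the levels of all other groups except the lowest 2 IMZ383 cultures.

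**Figure D1:**
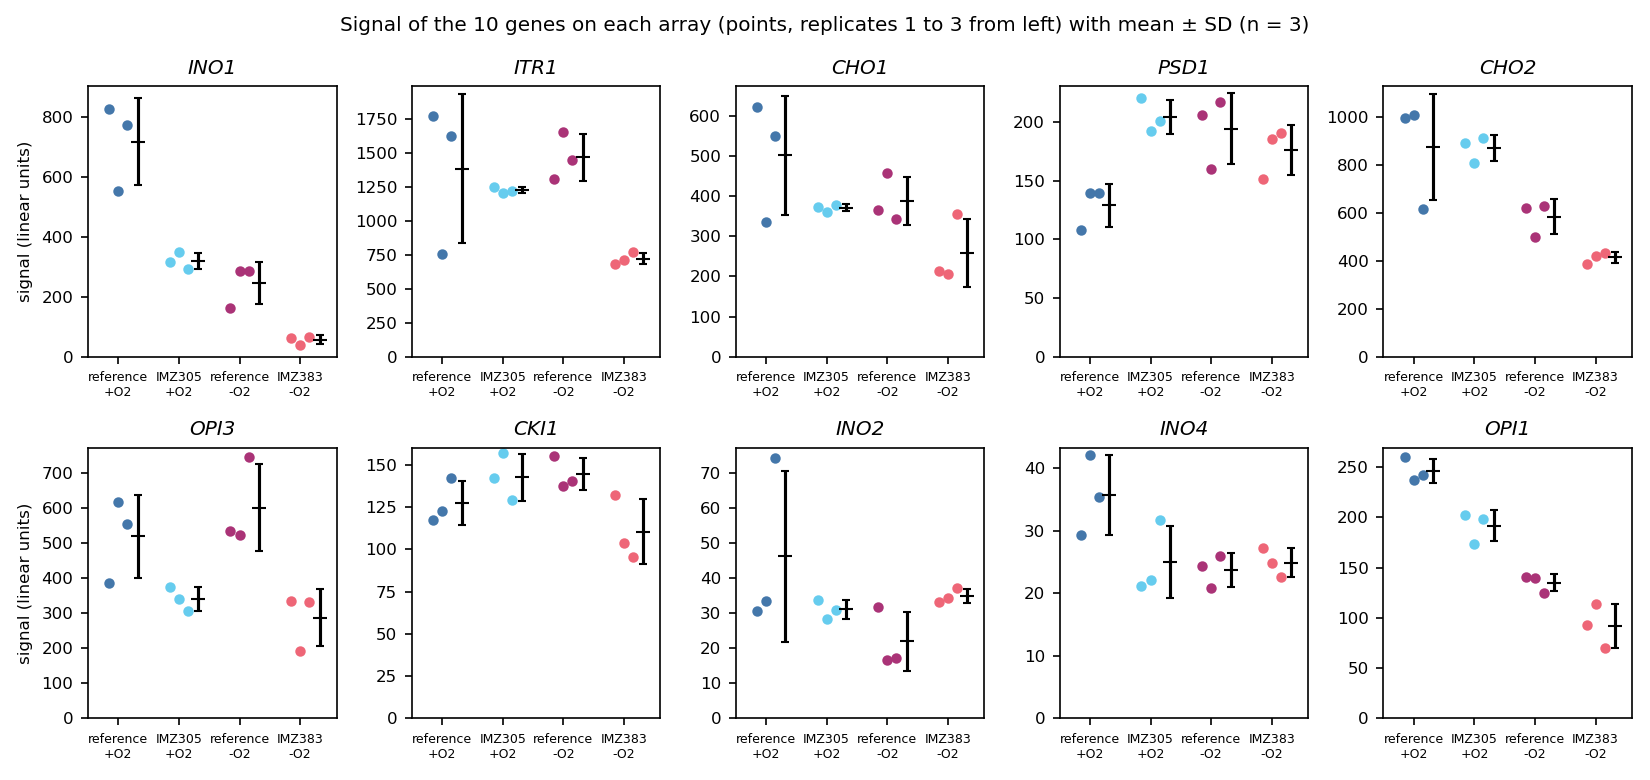
Signal of each of the 10 genes (vertical axis, linear signal units starting at 0) on each array, by group (horizontal axis, +O2 with air and -O2 without oxygen), with points for replicates 1 to 3 from left to right and the black mark and bar for mean ± SD (n = 3). INO1 steps down from 717 to 320, 246 and 56.9, PSD1 is lowest in the aerobic reference, and aerobic reference 2 lies apart for ITR1 (755.4) and CHO1 (335.7).

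CHO1 (YER026C) encodes phosphatidylserine synthase. Its signal was 619.9, 335.7 and 549.2 in the aerobic reference (502 ± 148) and 373.1, 360.7 and 378.6 in IMZ305 (371 ± 9.17). It was 364, 456.4 and 342.5 in the anaerobic reference (388 ± 60.5) and 213.5, 205.6 and 356.1 in IMZ383 (258 ± 84.7). The groups overlapped in both strain comparisons and in the oxygen comparison, while IMZ383 lay just below IMZ305 (at most 356.1 against at least 360.7). As for INO1 and ITR1, aerobic reference 2 was the lowest culture of its group.

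PSD1 (YNL169C) encodes the mitochondrial phosphatidylserine decarboxylase. It read 108, 139.3 and 139.7 in the aerobic reference (129 ± 18.2) and 220.5, 192.2 and 200.5 in IMZ305 (204 ± 14.5). It read 205.9, 159.6 and 217.1 in the anaerobic reference (194 ± 30.5) and 151.4, 185.2 and 190.6 in IMZ383 (176 ± 21.2). The aerobic reference lay below all 9 other arrays, and the other 3 groups overlapped except that IMZ305 lay above IMZ383.

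CHO2 (YGR157W) encodes the methyltransferase of the first methylation of phosphatidylethanolamine. It read 993.6, 1006 and 617.3 in the aerobic reference (872 ± 221) and 891.1, 808.4 and 911.5 in IMZ305 (870 ± 54.6). It read 619.7, 499.8 and 630.5 in the anaerobic reference (583 ± 72.5) and 388, 421.2 and 433.5 in IMZ383 (414 ± 23.5). IMZ383 was below every other culture, and aerobic reference 3 fell within the range of the anaerobic reference.

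OPI3 (YJR073C) encodes the methyltransferase of the remaining methylations to phosphatidylcholine. It read 387.6, 617 and 556 in the aerobic reference (520 ± 119) and 374.9, 340.3 and 306.3 in IMZ305 (341 ± 34.3). It read 536.2, 522.5 and 745.7 in the anaerobic reference (601 ± 125) and 334.4, 193 and 333.5 in IMZ383 (287 ± 81.4). Both engineered strains lay below both reference groups on every array, and the engineered strains overlapped each other, as did the reference groups. The gap between IMZ305 and aerobic reference 1 was small (374.9 against 387.6).

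CKI1 (YLR133W) encodes choline kinase, the entry into the CDP-choline branch. It varied least: 117.6, 122.8 and 142.2 in the aerobic reference (128 ± 13.0), 142.2, 157.1 and 129 in IMZ305 (143 ± 14.1), 155.3, 137.4 and 140.8 in the anaerobic reference (145 ± 9.51) and 132.2, 103.9 and 95.8 in IMZ383 (111 ± 19.1). Only the anaerobic groups did not overlap, and the group means spanned 0.40 on the log2 scale.

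The genes of the activators gave low signals. INO2 (YDR123C) read 30.7, 33.5 and 74.1 in the aerobic reference (46.1 ± 24.3), 33.8, 28.3 and 30.9 in IMZ305 (31.0 ± 2.75), 31.7, 16.7 and 17.3 in the anaerobic reference (21.9 ± 8.49) and 33.2, 34.3 and 37 in IMZ383 (34.8 ± 1.96). The high aerobic mean came from aerobic reference 3, since the other aerobic arrays all lay between 28.3 and 33.8. INO4 (YOL108C) read 29.4, 42.2 and 35.5 in the aerobic reference (35.7 ± 6.40), 21.2, 22.2 and 31.7 in IMZ305 (25.0 ± 5.80), 24.4, 20.8 and 26 in the anaerobic reference (23.7 ± 2.66) and 27.3, 24.9 and 22.6 in IMZ383 (24.9 ± 2.35). Outside the aerobic reference, the INO4 groups overlapped.

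OPI1 (YHL020C), the gene of the repressor, was stepped in the same order as INO1. It read 260, 237.2 and 241.8 in the aerobic reference (246 ± 12.1) and 202.5, 173.8 and 198.3 in IMZ305 (192 ± 15.5). It read 140.2, 139.6 and 125.1 in the anaerobic reference (135 ± 8.55) and 92.6, 113.6 and 70.1 in IMZ383 (92.1 ± 21.8). No neighbouring groups overlapped, and the group means spanned 1.45 on the log2 scale.

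**Figure D2:**
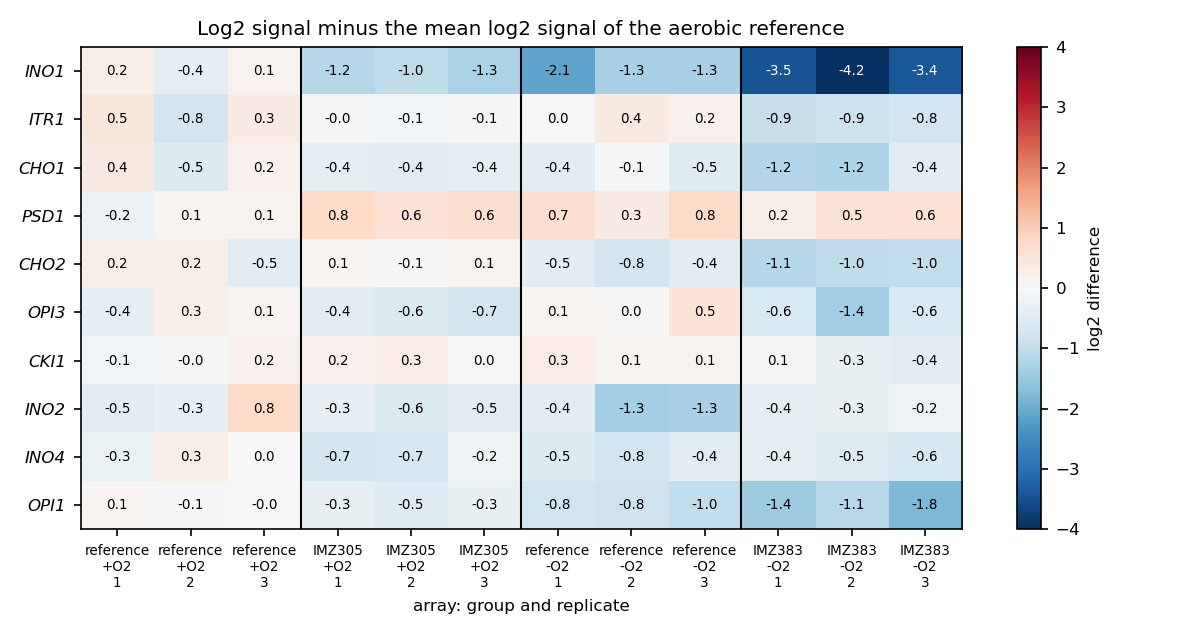
Difference of each array's log2 signal from the mean log2 signal of the aerobic reference for the 10 genes (rows), by array (columns, grouped and numbered by replicate), with blue for lower and red for higher. The INO1 row darkens to the right and OPI1 follows the same order with smaller steps, while PSD1 is above the aerobic reference mean in the 9 other arrays.

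With air, INO1 was lower and PSD1 higher in IMZ305 than in the reference. INO1 fell 2.21-fold (log2 change -1.15 ± 0.28, standard error, limma adjusted p = 0.0254). PSD1 rose 1.59-fold (0.67 ± 0.16, adjusted p = 0.0219). A change was called at a Benjamini-Hochberg adjusted p under 0.05 over all 9275 probe sets. Of the 10 genes, 1 was called lower and 1 higher, where 8.3% and 6.09% of all probe sets were called in these directions, so the number called was close to that background. The groups did not overlap for 3 genes that read lower (INO1, OPI3 and OPI1) and for PSD1, against 16.6% of all probe sets lower and 15% higher. The median log2 change was -0.38 over the 10 genes and 0 over all probe sets.

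OPI3 had a log2 change of -0.59 (95% interval -1.17 to -0.01, adjusted p = 0.171) and OPI1 of -0.37 (-0.72 to -0.01, adjusted p = 0.169). INO4 stood at -0.52 (adjusted p = 0.0978), INO2 at -0.46 (adjusted p = 0.440) and CHO1 at -0.39 (adjusted p = 0.395). ITR1 (-0.08, interval -0.69 to 0.53), CHO2 (0.03, interval -0.39 to 0.44) and CKI1 (0.16, interval -0.15 to 0.47) were near 0, with intervals too wide to show equal levels.

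Both aerobic calls ended in several of the fits that left out 1 aerobic array, though the changes kept their direction. The INO1 call ended without aerobic reference 1 or 3 or any IMZ305 culture, with adjusted p = 0.0632 to 0.0792 and log2 changes of -1.21 to -1.03. The PSD1 call ended without aerobic reference 1 (adjusted p = 0.0660), IMZ305 replicate 1 (0.0820) or IMZ305 replicate 2 (0.0537). Its log2 changes there were 0.55 to 0.72. In each fit that ended a call of INO1 or PSD1, fewer of all probe sets were called than in the fit to all arrays. Whether the lost calls were particular to these genes was not tested. Without aerobic reference 3, the aerobic array with high BioB signal, INO1 changed by -1.08 (adjusted p = 0.0703) and PSD1 was still called. That fit still held the 6 anaerobic arrays, which enter through the shared estimate of spread. Without aerobic reference 2, ITR1 was lower in IMZ305, by -0.47 on the log2 scale (adjusted p = 0.0290), and CHO1 stood at -0.65 (adjusted p = 0.105).

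**Figure D3:**
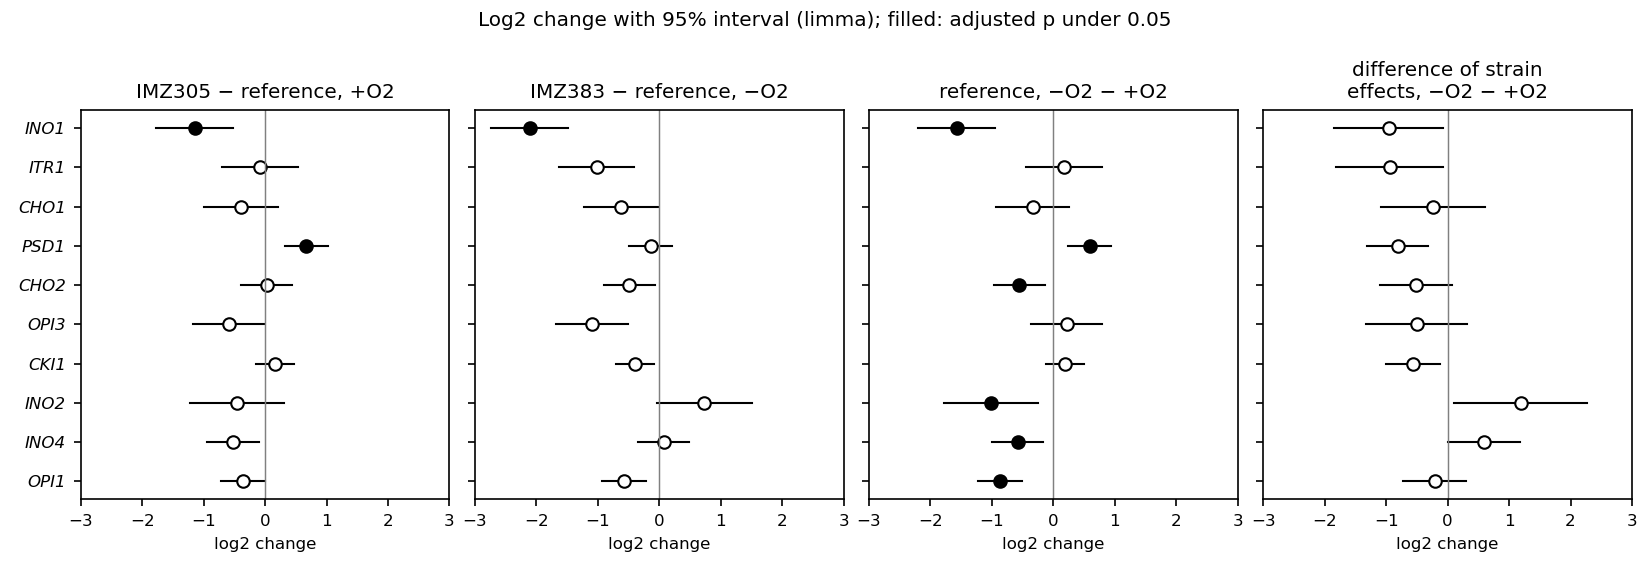
Log2 change (horizontal axis) of each of the 10 genes (rows) in the 3 group comparisons and in the difference between both strain effects, with 95% intervals from limma as lines and filled points for an adjusted p under 0.05. INO1 is filled in the first 3 panels, at -1.15, -2.10 and -1.57, and the last panel has no filled point.

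Without oxygen, INO1 was again lower in the engineered strain, and most of the other enzyme genes also read lower. INO1 fell 4.30-fold in IMZ383 (log2 change -2.10 ± 0.28, adjusted p = 0.00513). It was called whichever of the 12 arrays was left out (adjusted p = 0.00239 to 0.0259), but not in a fit to the 2 anaerobic groups alone (adjusted p = 0.0822). INO1 was the 1 gene of the 10 called lower, against 0.593% of all probe sets, and 0 were called higher, against 1.69%. The groups did not overlap for 6 genes that read lower (INO1, ITR1, CHO2, OPI3, CKI1 and OPI1) and for INO2, which read higher, against 6.98% of all probe sets lower and 13.4% higher. The median log2 change was -0.53 over the 10 genes and 0.06 over all probe sets.

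OPI3 (-1.09, interval -1.67 to -0.51, adjusted p = 0.0676) and ITR1 (-1.02, interval -1.63 to -0.40, adjusted p = 0.100) had the next largest changes. OPI3 was called lower with a filter on low means (adjusted p = 0.0341), 1 probe set per gene (0.0370), an intensity trend (0.0284) or array quality weights (0.0337). ITR1 was called lower in a fit to the 2 anaerobic groups alone (adjusted p = 0.0451), with an intensity trend (0.0467) or with array quality weights (0.0260). It was also called without aerobic reference 2 (adjusted p = 0.00158), an array outside this comparison that enters through the shared estimate of spread. OPI1 stood at -0.58 (adjusted p = 0.109), and was called lower without IMZ383 replicate 2 (-0.74, adjusted p = 0.0378). CHO1 (-0.62, adjusted p = 0.304), CHO2 (-0.49, adjusted p = 0.248) and CKI1 (-0.40, adjusted p = 0.201) were not called. Of the activator genes, INO2 stood at 0.73 (an interval that included 0, adjusted p = 0.347) and INO4 at 0.07 (interval -0.34 to 0.49, adjusted p = 0.916). PSD1 stood at -0.14 (interval -0.49 to 0.21, adjusted p = 0.740). Of all calls in this comparison, 74.1% were higher in the values as they stand, 60.2% after quantile normalization and 54.4% after centring each array on its median.

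In the reference, INO1, OPI1, INO4, CHO2 and INO2 were called lower without oxygen than with air, and PSD1 was called higher. Of these, only INO1 was called under every scaling tried and whichever array was left out. INO1 fell 2.97-fold (log2 change -1.57 ± 0.28, adjusted p = 0.00207) and OPI1 fell 1.83-fold (-0.87 ± 0.16, adjusted p = 0.00246). Both were called whichever of the 12 arrays was left out. PSD1 rose by 0.59 on the log2 scale (± 0.16, adjusted p = 0.0168). INO4 fell 1.49-fold (adjusted p = 0.0378), CHO2 1.47-fold (adjusted p = 0.0440) and INO2 2.03-fold (adjusted p = 0.0447), the latter 2 with overlapping groups. Of the 10 genes, 5 were called lower and 1 higher, against 23.3% and 11% of all probe sets. The groups did not overlap for 3 genes that read lower and 1 that read higher, against 28.8% and 14.6%.

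The oxygen comparison depended on scaling, because the median log2 change over all probe sets was -0.18 in the deposited values, 0 after quantile normalization and 0.22 after median centring. The share of all calls that were higher was 32.1%, 48.9% and 67.6% in that order. INO1 and PSD1 were called in the same direction under all 3 scalings. OPI1 was not called with median centring (-0.47, adjusted p = 0.0676), nor was CHO2 (-0.16, adjusted p = 0.591). INO2 and INO4 were called only as deposited (with median centring -0.62, adjusted p = 0.160, and -0.18, adjusted p = 0.483). The calls of INO4, INO2 and CHO2 held in 6, 3 and 1 of 12 fits that left out 1 array. PSD1 was not called without aerobic reference 1 (adjusted p = 0.0570), or without anaerobic reference 1 (0.0533) or 3 (0.0657), or in a fit to the 2 reference groups alone (0.0666). CKI1 stood at 0.18 in the deposited values and was not called, but was called higher after quantile normalization (0.50, adjusted p = 0.0310) and after median centring (0.58, adjusted p = 0.0214). ITR1 stood at 0.18, OPI3 at 0.22 and CHO1 at -0.34, all with intervals that included 0. This comparison shares its arrays with both strain comparisons.

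The difference between both strain effects passed the threshold for none of the 10 genes in the fit to all arrays, but for PSD1 it did so under several alternatives. Of the 10, limma called 0 higher and 0 lower in the difference of both effects, against 5.92% and 2.95% of all probe sets. An unadjusted p under 0.05 was found for 6, but the share of all probe sets at that threshold was not computed. PSD1 came nearest, with a difference of -0.81 on the log2 scale (interval -1.31 to -0.31, adjusted p = 0.0526). It was called lower in 5 of the other settings (adjusted p = 0.0237 to 0.0493, quantile normalization and array quality weights among them) and without anaerobic reference 2 (0.0314). INO1 differed by -0.96 (interval -1.84 to -0.07, adjusted p = 0.168) and ITR1 by -0.94 (interval -1.81 to -0.07, adjusted p = 0.168). INO2 differed by 1.19 (interval 0.10 to 2.28, adjusted p = 0.163), CKI1 by -0.56 (adjusted p = 0.111, and 0.0468 without IMZ383 replicate 1) and INO4 by 0.59 (adjusted p = 0.201). Of all calls in this difference, 66.7% were higher in the deposited values, 56.5% after quantile normalization and 48.9% after median centring.

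Other genes of the pathway, 45 in 6 lists that hold none of the 10, all had a probe set. Their signals were not compared with the non-target controls, as those of the 10 genes were. In IMZ305, 6 of the 45 were called lower and 1 higher, beside 8.3% and 6.09% of all probe sets, and their median log2 change was -0.01. PLB2, a phospholipase B gene, fell from 340 ± 23.4 to 91.2 ± 3.39 (3.72-fold, limma adjusted p = 4.03e-05). PLB1 and PLB3, which are similar to it in sequence, stood at 0.61 and 0.47 on the log2 scale, neither called. Whether the PLB2 probe set also reads them was not tested. SPO14, the phospholipase D gene, fell from 214 ± 20.7 to 106 ± 13.0 (2.01-fold, limma adjusted p = 0.00275). GPT2, whose product acylates glycerol 3-phosphate, fell from 809 ± 136 to 369 ± 35.6 (2.18-fold, adjusted p = 0.00707). PLB2, SPO14 and GPT2 were called whichever of the 12 arrays was left out. PSD2, the gene of the other phosphatidylserine decarboxylase, fell from 99.6 ± 11.5 to 62.2 ± 3.57 (1.59-fold, adjusted p = 0.0191), while PSD1 rose. The PSD2 call ended without aerobic reference 1 or IMZ305 replicate 1. EPT1, an ethanolaminephosphotransferase gene, rose 1.91-fold (adjusted p = 0.0171), ALE1, a lysophospholipid acyltransferase gene, fell 1.57-fold (adjusted p = 0.0176), and DPL1, whose product releases ethanolamine phosphate from long-chain base phosphates, fell 1.58-fold (adjusted p = 0.0270). The calls of EPT1 and ALE1 each ended when IMZ305 replicate 1, IMZ305 replicate 2 or aerobic reference 3 was left out, and that of DPL1 on leaving out any aerobic array but aerobic reference 2. The DPL1 call also ended with median centring (adjusted p = 0.0533). Leaving out 1 array gave 0 to 2 higher calls, with 0 when IMZ305 replicate 1 or 2 or aerobic reference 3 was dropped, and 3 to 6 lower calls. Quantile normalization gave 4 higher and 6 lower.

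In IMZ383, limma called 0 of the 45 pathway genes, beside 0.593% of all probe sets called lower and 1.69% higher. An unadjusted p under 0.05 was found for 9, without a share over all probe sets to set beside it. Their median log2 change was 0.16, with 13 of 45 below 0, beside -0.53 over the 10 genes, of which 8 were below 0.

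**Figure D4:**
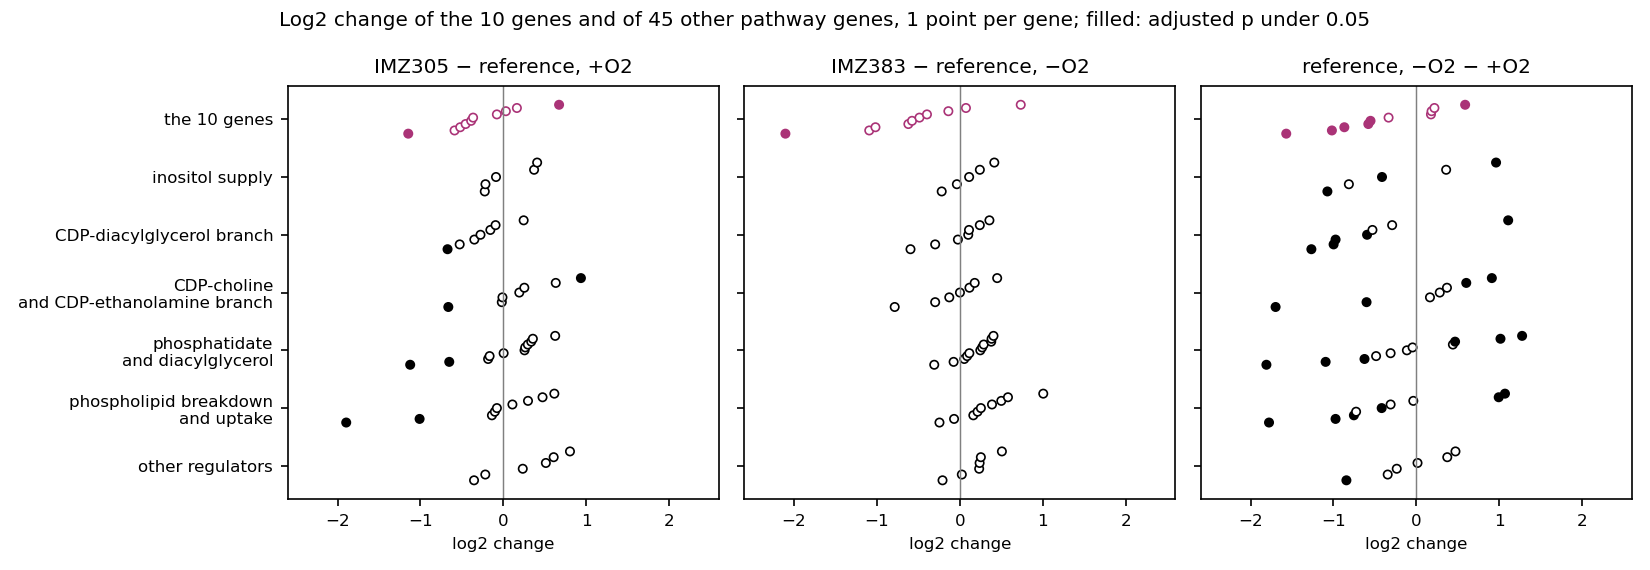
Log2 change (horizontal axis) of the 10 genes (top row, magenta) and of 45 other pathway genes in 6 lists (rows, black), 1 point per gene, in the 3 group comparisons, with filled points for an adjusted p under 0.05. In the middle panel INO1 at -2.10 is the only filled point, and in the right panel 9 of the 45 are filled to the right and 16 to the left.

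In the reference without oxygen, 16 of the 45 were called lower and 9 higher, beside 23.3% and 11% of all probe sets. With quantile normalization 10 were lower and 10 higher, and with median centring 8 and 14. PIS1, the phosphatidylinositol synthase gene, rose from 478 ± 59.3 to 1025 ± 41.9 (2.15-fold, adjusted p = 0.000113). PIS1 uses the inositol that INO1 and ITR1 supply, and its change ran opposite to that of INO1. CRD1, the cardiolipin synthase gene, fell from 119 ± 4.97 to 49.8 ± 6.67 (2.41-fold, adjusted p = 2.92e-05), and PSD2 fell 1.97-fold (adjusted p = 0.00100). The acyltransferase genes parted: SLC1 and SCT1 rose 2.42-fold and 2.02-fold (adjusted p = 0.000425 and 0.00384), and GPT2 fell 3.50-fold (adjusted p = 0.000137). SPO14 fell 3.43-fold (adjusted p = 2.47e-05), DPL1 fell 3.24-fold (adjusted p = 5.64e-05), and PLB2 rose 1.99-fold (adjusted p = 0.000415). Of the inositol monophosphatase genes, INM1 rose 1.95-fold (adjusted p = 0.00281) and INM2 fell 2.10-fold (adjusted p = 0.00126). GDE1, whose product splits glycerophosphocholine, fell 1.97-fold (adjusted p = 7.05e-05), and EPT1 rose 1.88-fold (adjusted p = 0.00742). All of these (PIS1, CRD1, PSD2, SLC1, SCT1, GPT2, SPO14, DPL1, PLB2, INM1, INM2, GDE1 and EPT1) were called under the 3 scalings and whichever array was left out. DPP1, PGC1 and CPT1 also fell, by 1.54-fold, 1.69-fold and 1.52-fold, but were not called with median centring (adjusted p = 0.225, 0.0843 and 0.430), and TAM41 (2.00-fold lower) and VIP1 (1.33-fold lower) with neither other scaling. PCT1 rose 1.52-fold, a call that ended without aerobic reference 1 or 3 or anaerobic reference 3. ALE1 rose 1.38-fold (limma adjusted p = 0.0321), in the direction of the acyltransferase genes SLC1 and SCT1. Its call held in 8 of 12 fits that left out 1 array. UME6, the only one of 6 other regulator genes called, fell 1.79-fold (adjusted p = 0.0232), and was not called with quantile normalization (adjusted p = 0.222) or median centring (adjusted p = 0.202).

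The difference of both strain effects was called for 6 of the 45 pathway genes, 5 of them higher (less lowered or more raised in IMZ383 than in IMZ305) and 1 lower, beside 5.92% and 2.95% of all probe sets. With median centring 2 were called higher and 2 lower. PLB2 differed by 1.83 on the log2 scale (adjusted p = 0.000705) and SPO14 by 1.59 (adjusted p = 0.00236). ALE1 differed by 1.03 (adjusted p = 0.0146), DPL1 by 1.11 (adjusted p = 0.0179) and GPT2 by 1.24 (adjusted p = 0.0281), all 3 not called with median centring (adjusted p = 0.0578, 0.0545 and 0.0674). EPT1 differed by -1.23 (adjusted p = 0.0305). The EPT1 and GPT2 calls each held in 4 of 12 fits that left out 1 array, and that of DPL1 ended without anaerobic reference 3.

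Genes with a pattern like that of a member were sought among 5810 probe sets by the largest difference between centred log2 means of the 4 groups, for the 6 members whose means spanned more than 1. INO1 had no close match: the nearest were HAB1 (0.40), whose IMZ383 mean of 3.63 lay among the non-target controls, SUL1 (0.41), a sulfate transporter gene, and TES1 (0.66), a peroxisomal thioesterase gene. For OPI1 the nearest were SMT1 (0.07), RPI1 (0.09) and RTT101 (0.10). For ITR1 they were MCH2 (0.07), MRF1 (0.13) and MRPL27 (0.16), and for CHO2 RNH203 (0.03), HYM1 (0.04) and ACO1 (0.07). For OPI3 they were MTO1 (0.20), FYV4 (0.21) and MFA1 (0.22), and for INO2 BET2 (0.02), REC107 (0.04) and SOV1 (0.08). Low means also limit MCH2 (5.43 in IMZ383), REC107 (6.6 in the anaerobic reference) and SOV1 (6.63 there). These lay within the range of the highest non-target controls. None of the 10 genes was among these nearest genes of another.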

How the data were processed

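RNA of 12 cultures was read on 1 Affymetrix 3′ array each. Per the labels' protocols, 200 ng of total RNA was amplified and labelled with a 3′ IVT kit, and polyadenylated spike-in controls were left out. The authors deposited 1 linear signal intensity for each probe set, already scaled; the software for this is not given in the sources used here. Arrays give no read counts, and their number limits the precision.

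Of 9335 probe sets, 60 controls were left out and 9275 tested. Genes were named through the platform annotation, updated through RefSeq (R64), which gave 1 gene for 6504 probe sets, several for 328 and none for 2443. Where a gene had several probe sets, that with the highest mean was used. Values were floored at the 10th percentile (1.1) and taken to log2. A model with 1 mean per group over 12 arrays was fitted with limma 3.58.1 in R 4.3.3 (two-sided, Benjamini-Hochberg over 9275 probe sets). The fit was tested on simulated data.

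The 10 genes, the pathway lists and the comparisons were chosen with earlier results of these data known. The rule for naming genes took all 10 members, up to 4 called genes per pathway list by adjusted p, and the 3 likest genes per member, above a mean of 6.8 (25th percentile). ALE1 in the oxygen comparison was named beyond this rule. Alternatives were quantile normalization, median centring, no floor, a floor of 2.2, a filter on low means, 1 probe set per gene, a fit to the groups compared, a replicate block, an intensity trend with robust prior, array quality weights, and leaving out each array.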

Additional observations from a re-analysis of the deposited data

How the results depend on the processing

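Of 870 recomputed log2 changes of the 10 genes, 782 kept direction and side of the threshold, 53 lost and 22 gained a call, and 13 changed sign. Many of the 870 could not change size or direction. Only the other scalings, the array weights and leaving out an array of the comparison could move the estimate. The remaining alternatives could change only its adjusted p, so these counts overstate how firmly the estimates held. INO1 was lower in every alternative of the 3 group comparisons, and PSD1 was higher in every alternative of the aerobic and the oxygen comparison. In IMZ305, 4 genes instead of 2 were called with array quality weights, and 0 to 3 on leaving out 1 array. Calls over all probe sets also rose with array quality weights, and fell in each fit that called 0 of the 10 genes. The fit that called 3, without aerobic reference 2, did not call more probe sets in all than the fit to all arrays. In IMZ383, 2 instead of 1 were called with a filter on low means or 1 probe set per gene, 3 with an intensity trend or array quality weights, and 1 to 2 on leaving out 1 array. More of all probe sets were again called with array quality weights. Fewer were called without IMZ383 replicate 2, where 2 of the 10 genes were called. In the oxygen comparison, 3 instead of 6 were called with median centring, 2 with the compared groups alone, and 2 to 4 on leaving out 1 array. With the replicate block 3 genes were called there (INO1, PSD1 and OPI1), and the counts in the other comparisons stayed at 2, 1 and 0. Deviations of same-numbered arrays correlated between -0.03 and 0.05 in 9 pairs, and those of differently numbered arrays between -0.07 and 0.08. No shared deviation by culture number was seen, but 3 arrays a group cannot exclude that same-numbered cultures were handled together. In the difference of effects, 1 instead of 0 was called (PSD1) with quantile normalization, the higher floor, 1 probe set per gene, an intensity trend or array quality weights, and 0 to 1 on leaving out 1 array.

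Sign changes concerned changes of at most 0.34 in size that were not called in the fit to all arrays. In the aerobic comparison, CHO2 read -0.00247 with quantile normalization, -0.0652 with array quality weights and -0.20 to 0.15 on leaving out 1 array. On leaving out 1 array ITR1 read -0.47 to 0.15, and it was called lower at -0.47, without aerobic reference 2. In the anaerobic comparison, INO4 read -0.0457 with quantile normalization, -0.0454 with median centring and -0.0189 to 0.14 on leaving out 1 array. In the oxygen comparison, ITR1 read -0.0455 with quantile normalization and -0.21 to 0.40 on leaving out 1 array, and CHO1 read 0.0595 with median centring. CHO1 in the difference of effects read -0.49 to 0.0330 on leaving out 1 array. The cause was not tested. Each member had a single probe set, so no other probe set could be tried, and for the difference of effects a fit to the groups compared is the fit to all groups. The 3 arrays a group limit the precision of every value.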
